A study of Mus musculus with 4 samples.

Results

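Hox genes encode homeodomain transcription factors that give cells their position along the body axis, and 38 of them were examined here, out of 20665 autosomal protein-coding genes placed on the genome. They were chosen by name, from the 4 clusters A, B, C and D, with 10 genes of cluster A, 10 of cluster B, 9 of cluster C and 9 of cluster D. Each gene was given the regions on its body and up to 2 kb to either side. In each cluster the genes stand in a row numbered up to 13, and low numbers act in anterior and high numbers in posterior parts of the embryo. In the developing lung, genes of the anterior and middle parts of clusters A and B, such as Hoxa5 and Hoxb5, are known for roles in branching and alveolar growth, largely in the mesenchyme. In cells that do not use them, Hox clusters are textbook targets of Polycomb repression, while their promoters are rich in CpG dinucleotides.

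Open chromatin was mapped by ATAC-seq, which uses a transposase to tag accessible DNA, in 4 lung tumour samples of C57B6J mice aged 55 weeks. The KrasLA1 group had 2 samples of genotype KrasLA1/+, and the KrasLA1;Dicer1S2D group had 2 samples of genotype KrasLA1/+;Dicer1S2D/+, each with a number of its own in the labels. KrasLA1 is a latent oncogenic allele that spontaneous recombination activates, and Dicer1S2D is an allele made to mimic phosphorylation of Dicer1, the enzyme that cuts microRNA precursors. In each group replicate 1 was female and replicate 2 male. All 4 samples therefore carried KrasLA1, and no sample of normal lung or of Dicer1S2D alone is analysed here. The labels do not say how many tumours went into a sample. The values are intervals called as peaks in each library in mm10, with no height or read count, so the sequencing depth behind them is unknown.

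The Hox clusters held few peaks in all 4 tumours. A total of 8 merged regions (the union of overlapping peaks of the 4 libraries) lay at these genes, or 2.13 per 100 kb of their windows, against 3.86 per 100 kb over the windows of all coding genes. Of the 38 genes, 31 (81.6%) had no region in any library and 1, Hoxa9, had a peak in every library. Among all autosomal protein-coding genes, 71.2% had a region and 61.3% had a peak in every library within the same 2 kb. By library, 2 Hox genes had a peak in KrasLA1 replicate 1 and 7 in KrasLA1 replicate 2, against 1 in each KrasLA1;Dicer1S2D library. These are 5.26%, 18.4%, 2.63% and 2.63% of the genes, where all coding genes gave 66.2%, 67%, 67.5% and 64.1%. Of the Hox windows, peaks covered 0.192% and 0.785% in the KrasLA1 libraries, replicate 1 first, and 0.105% and 0.131% in the KrasLA1;Dicer1S2D libraries. Over the windows of all coding genes the values were 1.57%, 1.96%, 1.69% and 1.36%, so the Hox windows were the less covered in each library. A sample of tumour holds many cell types, and a site open in few cells cannot be told apart from one weakly open in many.

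**Figure D1:**
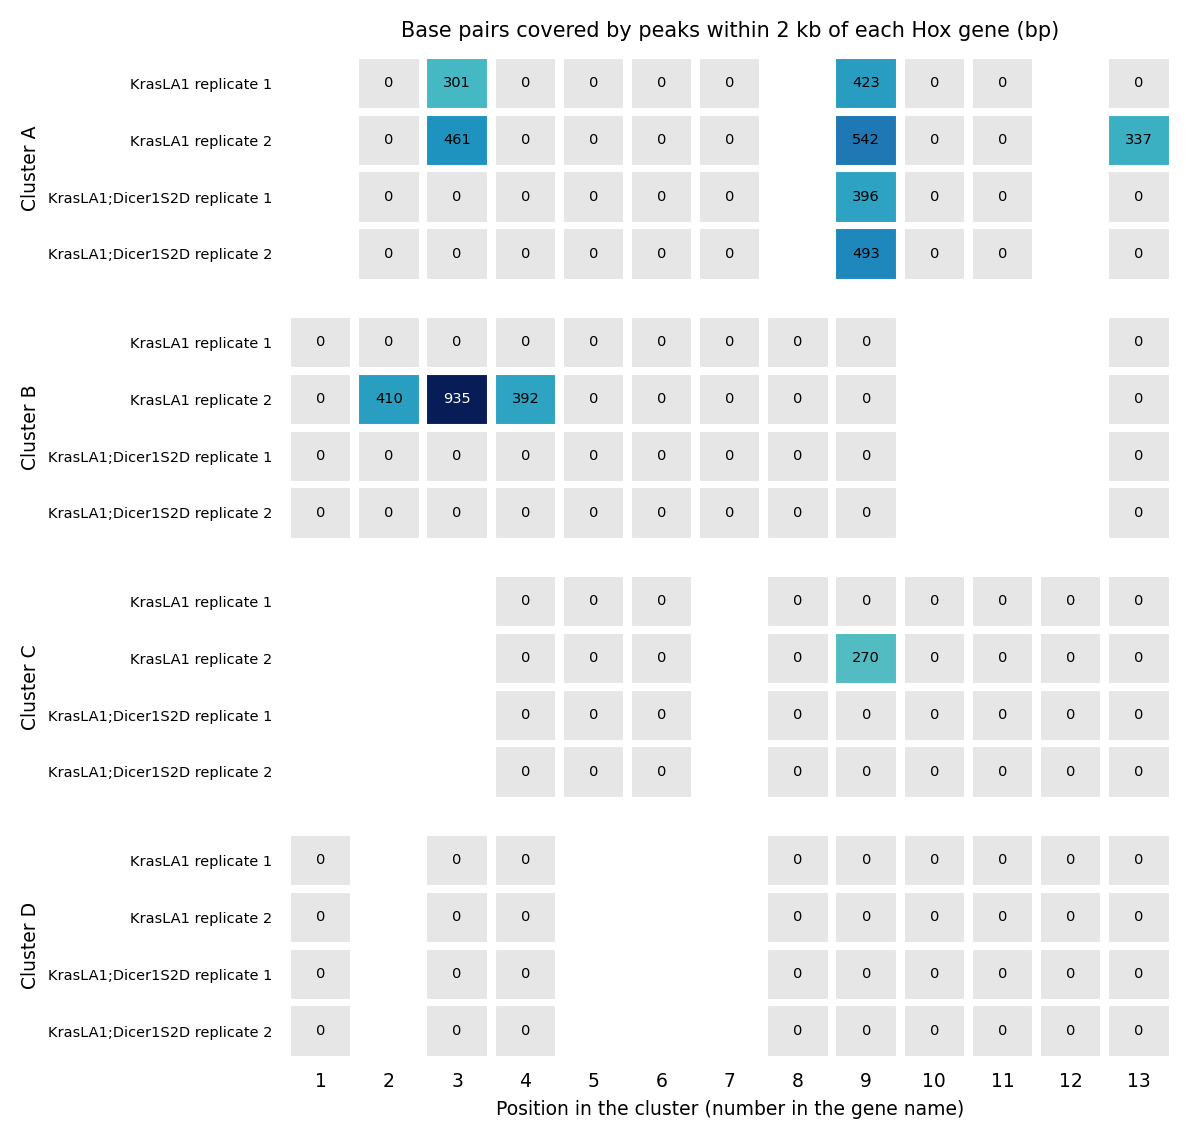
Base pairs covered by peaks within 2 kb of each Hox gene, with 1 panel per cluster, libraries in rows and the position number in columns. Grey cells are genes without a peak and blank places hold no gene analysed here. Hoxa9 has a value in all 4 libraries, and all 9 genes of cluster D are at 0.

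Short genes have fewer chances of a region, and most Hox genes are short, from 1784 to 44009 bp with a median of 3721.5 bp. Of the 23 Hox genes under 5 kb, 4 had a region, while 37.8% of the other coding genes of that length did. Of the 15 between 5 and 50 kb, 3 had a region, while 77.8% of the others did.

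The promoters are shown because they carry the clearest contrast between sequence and accessibility at these genes. Sequences are from RefSeq, GRCm38.p6 (the assembly of mm10), 5′ to 3′ on the strand of the gene, from 250 bases before to 50 bases after the start site, in lower case with each CpG dinucleotide in capitals. CG reads the same on both strands, and the matches do not overlap. The first pair flanks the region called in every library, the second pair has the most CpG among the Hox promoters, and Lnpk and Mtx2 hold the nearest regions on either side of cluster D, with Evx2, which had none, between Lnpk and the cluster.
Hoxa7 (chr6:52218524-52218823, minus strand): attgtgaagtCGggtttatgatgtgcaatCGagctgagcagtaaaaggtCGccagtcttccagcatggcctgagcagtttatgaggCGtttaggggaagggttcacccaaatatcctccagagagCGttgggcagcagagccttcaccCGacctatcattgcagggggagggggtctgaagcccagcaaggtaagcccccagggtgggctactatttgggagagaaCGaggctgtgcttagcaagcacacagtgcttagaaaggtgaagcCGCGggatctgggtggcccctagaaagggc
Hoxa9 (chr6:52227321-52227620, minus strand): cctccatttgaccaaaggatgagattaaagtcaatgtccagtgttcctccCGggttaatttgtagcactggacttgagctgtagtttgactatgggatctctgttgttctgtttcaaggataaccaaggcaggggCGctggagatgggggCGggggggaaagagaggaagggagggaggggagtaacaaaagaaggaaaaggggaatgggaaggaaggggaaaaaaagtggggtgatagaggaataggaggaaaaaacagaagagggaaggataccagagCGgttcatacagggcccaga
Hoxa13 (chr6:52260831-52261130, minus strand): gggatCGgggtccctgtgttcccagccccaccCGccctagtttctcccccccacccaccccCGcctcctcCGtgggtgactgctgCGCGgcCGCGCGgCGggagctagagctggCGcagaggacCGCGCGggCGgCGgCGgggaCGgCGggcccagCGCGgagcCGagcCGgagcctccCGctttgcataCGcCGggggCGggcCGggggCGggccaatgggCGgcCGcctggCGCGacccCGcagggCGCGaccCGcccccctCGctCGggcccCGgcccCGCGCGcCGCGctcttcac
Hoxd13 (chr2:74667975-74668274, plus strand): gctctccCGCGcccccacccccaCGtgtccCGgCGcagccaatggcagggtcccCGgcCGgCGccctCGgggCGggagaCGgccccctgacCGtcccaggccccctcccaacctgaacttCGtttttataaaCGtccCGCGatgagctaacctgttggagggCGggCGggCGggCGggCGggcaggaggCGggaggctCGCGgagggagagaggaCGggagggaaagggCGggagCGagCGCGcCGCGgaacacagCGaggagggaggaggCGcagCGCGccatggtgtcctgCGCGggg
Lnpk (chr2:74578899-74579198, minus strand): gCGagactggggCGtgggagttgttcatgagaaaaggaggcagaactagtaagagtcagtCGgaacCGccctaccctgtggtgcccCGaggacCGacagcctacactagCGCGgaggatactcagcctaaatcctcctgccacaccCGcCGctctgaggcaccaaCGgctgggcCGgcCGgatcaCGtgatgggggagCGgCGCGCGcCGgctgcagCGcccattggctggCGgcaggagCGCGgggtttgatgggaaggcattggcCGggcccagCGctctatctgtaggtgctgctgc
Mtx2 (chr2:74825562-74825861, plus strand): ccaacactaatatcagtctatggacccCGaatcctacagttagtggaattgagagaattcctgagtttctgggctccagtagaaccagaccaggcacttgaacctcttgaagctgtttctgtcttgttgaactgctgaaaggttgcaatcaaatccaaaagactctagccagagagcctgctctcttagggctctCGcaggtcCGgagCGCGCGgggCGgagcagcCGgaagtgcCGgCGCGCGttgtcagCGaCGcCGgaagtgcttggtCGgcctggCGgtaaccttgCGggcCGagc

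No Hox promoter in the table overlapped a peak, whatever its CpG content, while a peak of KrasLA1 replicate 2 covered the lower-coordinate end of Hoxc9, a gene with no entry there. The table held 24 promoters of 22 of the 38 genes, with Hoxa10 and Hoxd11 at 2 each. The genes without an entry were Hoxa4, Hoxb2, Hoxb3, Hoxb5, Hoxb6, Hoxb7, Hoxb9, Hoxb13, Hoxc5, Hoxc6, Hoxc8, Hoxc9, Hoxc10, Hoxc11, Hoxc12 and Hoxc13. The 24 promoters held 4 to 45 CpG in 300 bases with a median of 14.5, against a median of 7 in 31372 other autosomal promoters, and 94.8% of those others held at least 1. Of the other promoters with 20 or more CpG, 85.6% overlapped a merged region, and between 80.2% and 83.8% did so in a single library. Of the 11 Hox promoters with 20 or more, 0 did. The promoter of Hoxa13, a gene of the digits, hindgut and genital tract, held 45 CpG, and that of Hoxd13, a gene of the digits, held 37. Neither overlapped a peak in any library, while the promoters of Lnpk with 25 CpG and Mtx2 with 19 CpG overlapped a peak in all 4. At the low end, 8.29% of other promoters with 0 to 4 CpG overlapped a region, so the absence at the 3 Hox promoters of that class, among them that of Hoxa9, is what most promoters of that class showed. Among the promoters in the table, the nearest to a region was that of Hoxa13 at 558 bp, followed by that of Hoxa3 at 870 bp.

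**Figure D2:**
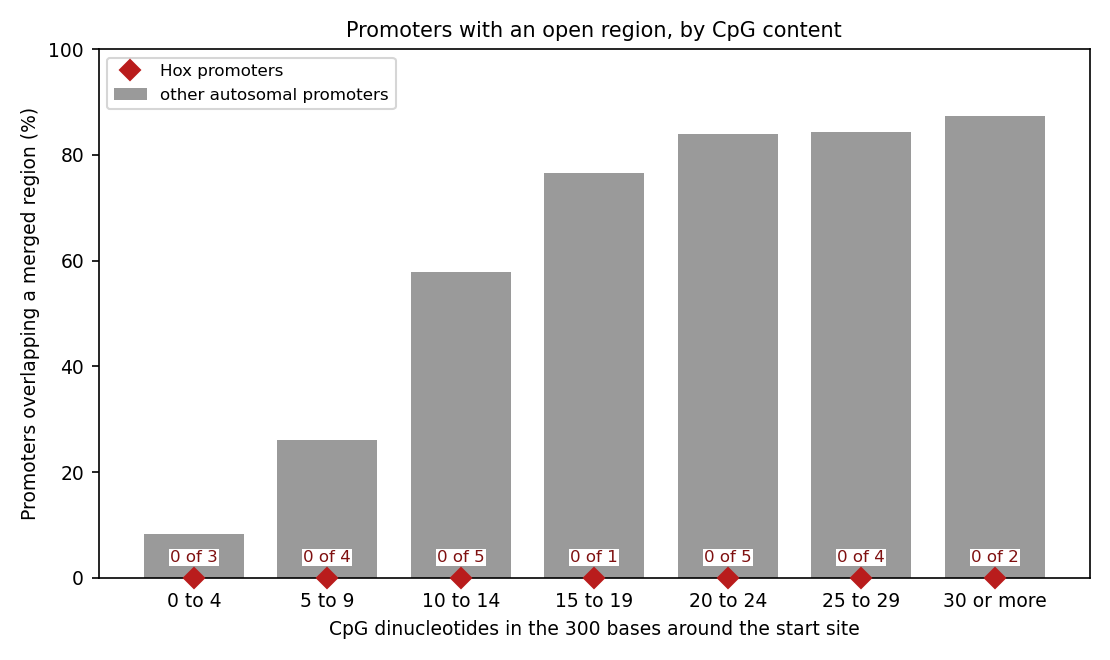
Share of promoters that overlap a merged region, by the number of CpG dinucleotides in the 300 bases around the start site. Bars are other autosomal promoters, and diamonds with counts are Hox promoters. Bars run from 8.29% to 87.4%, while Hox promoters are at 0 in each class.

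Cluster A held the only region that was called in all 4 tumours. It lies between Hoxa7 and Hoxa9 (chr6:52221387-52222022, 636 bp). It is 1075 bp beyond the end of Hoxa9, a factor best known from blood stem cells and leukaemia, 5348 bp downstream of the Hoxa9 start site and 2814 bp upstream of the start site of Hoxa7, which is active in the trunk. Its peaks were 423 bp and 542 bp wide in KrasLA1, replicate 1 first, against 396 bp and 493 bp in KrasLA1;Dicer1S2D. The widths of the groups overlapped, and all 4 peaks shared 320 bp (chr6:52221564-52221883). Each was near the middle of its own library, between the 46.4 and the 53.2 percentile of peak width. Relative to the library median over the 26402 autosomal regions called in every library, its log2 width was -0.51 and -0.40 in KrasLA1 and -0.62 and -0.19 in KrasLA1;Dicer1S2D. The difference between genotypes, KrasLA1;Dicer1S2D minus KrasLA1, was 0.05 ± 0.24 (SE) on the log2 scale (limma over 26402 regions, Benjamini-Hochberg adjusted p = 0.999). Over those regions limma called 0 at an adjusted p under 0.05, which is 0% of them, and 770 (2.92%) had an unadjusted p under 0.05. The sign of this difference was negative when KrasLA1 replicate 1 (-0.01) or KrasLA1;Dicer1S2D replicate 2 (-0.17) was left out, and it was -0.12 where widths were not centred on the library median.

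Hoxa3 was the 1 gene whose region was shared by the KrasLA1 tumours and absent from those with Dicer1S2D. Hoxa3 acts in the thymus, the parathyroid and the neck. The region (chr6:52211494-52212148, 655 bp) lies within the gene, 919 bp downstream of its start site, overlaps the noncoding gene Hoxaas3, and is 2822 bp upstream of the Hoxa6 start site. Peaks were 301 bp wide in KrasLA1 replicate 1 and 461 bp in KrasLA1 replicate 2, with none in either KrasLA1;Dicer1S2D library. Such regions are 1.42% of all 60713 autosomal regions, and 1 of 8 is too few to set against that share. No Hox region (0 of 8) was shared by the KrasLA1;Dicer1S2D tumours and absent from the KrasLA1 ones, the pattern of 0.596% of all autosomal regions. The peaks of the KrasLA1 tumours at Hoxa3 met in only 107 bp, and they counted as separate regions of 1 library each when peaks had to share 50% of the narrower one.

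The remaining 6 regions were called in KrasLA1 replicate 2 alone. Cluster A held 1 of them, within Hoxa13 (chr6:52259937-52260273), 337 bp wide and 607 bp downstream of the start site. Cluster B held 4, all at Hoxb2, Hoxb3 and Hoxb4 and within 41.8 kb of each other. Hoxb2 is a hindbrain gene, and its region (chr11:96352953-96353362, 410 bp) also overlaps the noncoding gene Hoxb3os. Hoxb3, which acts with Hoxa3 in the neck and hindbrain, had 3 regions, at chr11:96311533-96311785 (253 bp), chr11:96319425-96319816 (392 bp) and chr11:96341952-96342241 (290 bp). The region of 392 bp is at the same time within Hoxb4, a gene known from blood stem cells, 1158 bp downstream of its start site. Cluster C held 1 region, at Hoxc9 (chr15:102977004-102977273, 270 bp), a gene of the thoracic segments. It covers the first base of the gene (position 102977032), which is the start site if Hoxc9 is read on the plus strand as Hoxc4 is, and genes of a Hox cluster are as a rule read in 1 direction. The gene table used here gives no strand for Hoxc9. These 6 peaks lay between the 12.2 and the 35.5 percentile of peak width in that library, so they were all narrower than its median peak of 534 bp.

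**Figure D3:**
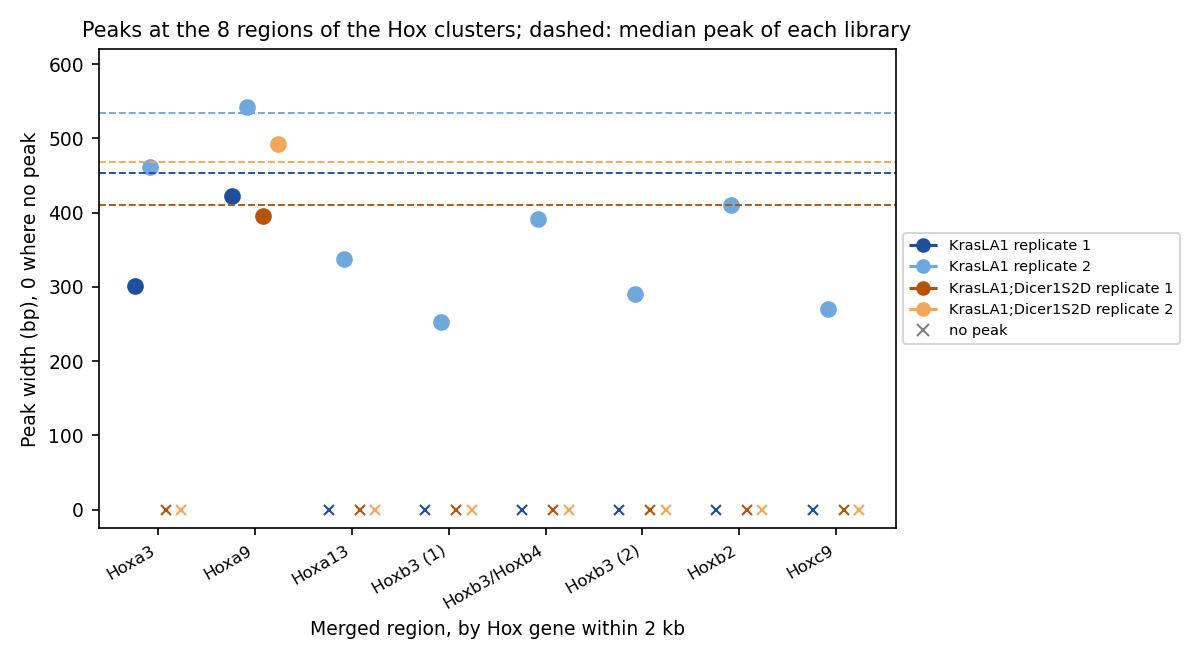
Width in bp of the peak at each of the 8 merged regions, with 1 colour per library, a cross at 0 where no peak was called, and a dashed line at the median peak width of each library. The region at Hoxa9 has peaks of 396 to 542 bp in all 4 libraries, and 6 regions have a peak in KrasLA1 replicate 2 only.

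Regions called in KrasLA1 replicate 2 alone were 75% of the Hox regions and 8.91% of all autosomal regions. Those called alone in KrasLA1;Dicer1S2D replicate 1, the library with the most peaks (50282), were 11.8% of all autosomal regions and none of the 8 Hox regions. KrasLA1 replicate 2 had 44654 peaks, the widest median (534 bp, against 410 to 468 bp) and the most bases under peaks (27.9 Mb, against 19 to 25 Mb). With equal numbers of the widest peaks it had 5 Hox regions, against 2 in KrasLA1 replicate 1 and 1 in each KrasLA1;Dicer1S2D library. That setting ranks peaks by width within each library and does not equalise depth, which is unknown. Peaks at markers of cell types were counted in the same libraries. Peaks at 5 leukocyte markers numbered 5 and 9 in the KrasLA1 libraries, replicate 1 first, and 8 and 5 in the KrasLA1;Dicer1S2D libraries. Csf1r, the receptor of macrophage growth factor, had a peak in KrasLA1 replicate 2 only, and Cd3e of T cells was at 0 in every library. At 7 mesenchyme markers the peaks numbered 4 and 5 in KrasLA1, and 4 and 2 in KrasLA1;Dicer1S2D, with Tbx4, Tcf21 and Wnt2 at 0 in every library. Among them Foxf1, a factor of lung mesenchyme, had 1 peak in KrasLA1 replicate 2 and 1 in KrasLA1;Dicer1S2D replicate 1 and 0 in the others, and Acta2 of smooth muscle had 2, 2, 1 and 0. Regions called in both KrasLA1 tumours only numbered 2 at Acta2, 1 at Tek of endothelium and 1 at Cdh1 of epithelium. That is the pattern of Hoxa3 and of 1.42% of all autosomal regions. None of the markers had a region of the reverse pattern, which is that of 0.596% of all autosomal regions. The share among the regions at the markers was not worked out, and the part of cell types in the Hoxa3 region was not tested. At 5 endothelium markers the peaks numbered 10 and 10 in KrasLA1, and 9 and 7 in KrasLA1;Dicer1S2D, with Kdr and Cdh5 at 0 in every library. All 7 lung epithelium markers, Nkx2-1 and Sftpc among them, had a peak in each library. Peaks at these markers numbered 22 and 19 in KrasLA1, and 23 and 15 in KrasLA1;Dicer1S2D. The part of cell types, peak number and peak width in the Hox regions of KrasLA1 replicate 2 was not tested.

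The genotype comparison asks whether the Dicer1S2D allele changed accessibility at the Hox genes. KrasLA1 replicates 1 and 2 had 2 and 8 Hox regions, and both KrasLA1;Dicer1S2D libraries had 1. The groups did not overlap, but the gap from 1 to 2 is a single region. The means were 5 ± 4.24 regions (SD, n = 2) and 1 ± 0 regions (SD, n = 2), a difference of -4 regions for KrasLA1;Dicer1S2D minus KrasLA1 (exact two-sided permutation test, p = 0.333). In base pairs, peaks took up 724 and 2955 bp of the Hox windows in KrasLA1 and 396 and 493 bp in KrasLA1;Dicer1S2D, with means of 1839.5 ± 1578 bp and 444.5 ± 68.6 bp (SD, n = 2; exact two-sided permutation test, p = 0.333). Genes with a peak numbered 2 and 7 against 1 and 1 (exact two-sided permutation test, p = 0.333). A p of 0.333 is the smallest that 2 libraries against 2 can give. Without KrasLA1 replicate 2 the differences were -1 region and -279.5 bp, and without KrasLA1 replicate 1 they were -7 regions and -2510.5 bp. Any 2 libraries that do not overlap the other 2 give this p, whatever the spread within the groups. Nothing says that replicates were prepared apart, so these p-values apply to these samples only.

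By number, the genes with a peak were at positions 1 to 4 and 9 to 13, most of them in KrasLA1 replicate 2 alone. Of 11 genes at positions 1 to 4, 4 had a peak in that library: Hoxa3, Hoxb2, Hoxb3 and Hoxb4. In KrasLA1 replicate 1 only Hoxa3 of these had one, and in the KrasLA1;Dicer1S2D libraries 0 had. Of 11 genes at positions 5 to 8, 0 had one in any library. The region between Hoxa7 and Hoxa9 lies more than 2 kb from Hoxa7 and so is not counted there. Nor is the Hoxa3 region, which lies between Hoxa6 and Hoxa7, since the body of Hoxa3 extends across Hoxa4, Hoxa5 and Hoxa6. Likewise, the Hoxb3 region of lowest coordinate lies between Hoxb5 and Hoxb4. The number of the gene therefore does not place these peaks at the ends of the clusters. The middle group holds Hoxa5 and Hoxb5 of lung branching, Hoxa6, Hoxa7, Hoxb6, Hoxb7, Hoxb8, Hoxc5, Hoxc6, Hoxc8 and Hoxd8. With a window of 10 kb the same 8 regions were found and the genes that reached one numbered 6 and 14 in KrasLA1 and 4 and 4 in KrasLA1;Dicer1S2D, since neighbouring genes then share regions. Of 16 genes at positions 9 to 13, 3 had a peak in KrasLA1 replicate 2, Hoxa9, Hoxa13 and Hoxc9, and Hoxa9 alone had one in each other library, while the posterior genes Hoxa10 and Hoxa11 of the uterus, Hoxb13 of the prostate and tail, and Hoxc10 to Hoxc13 had 0.

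**Figure D4:**
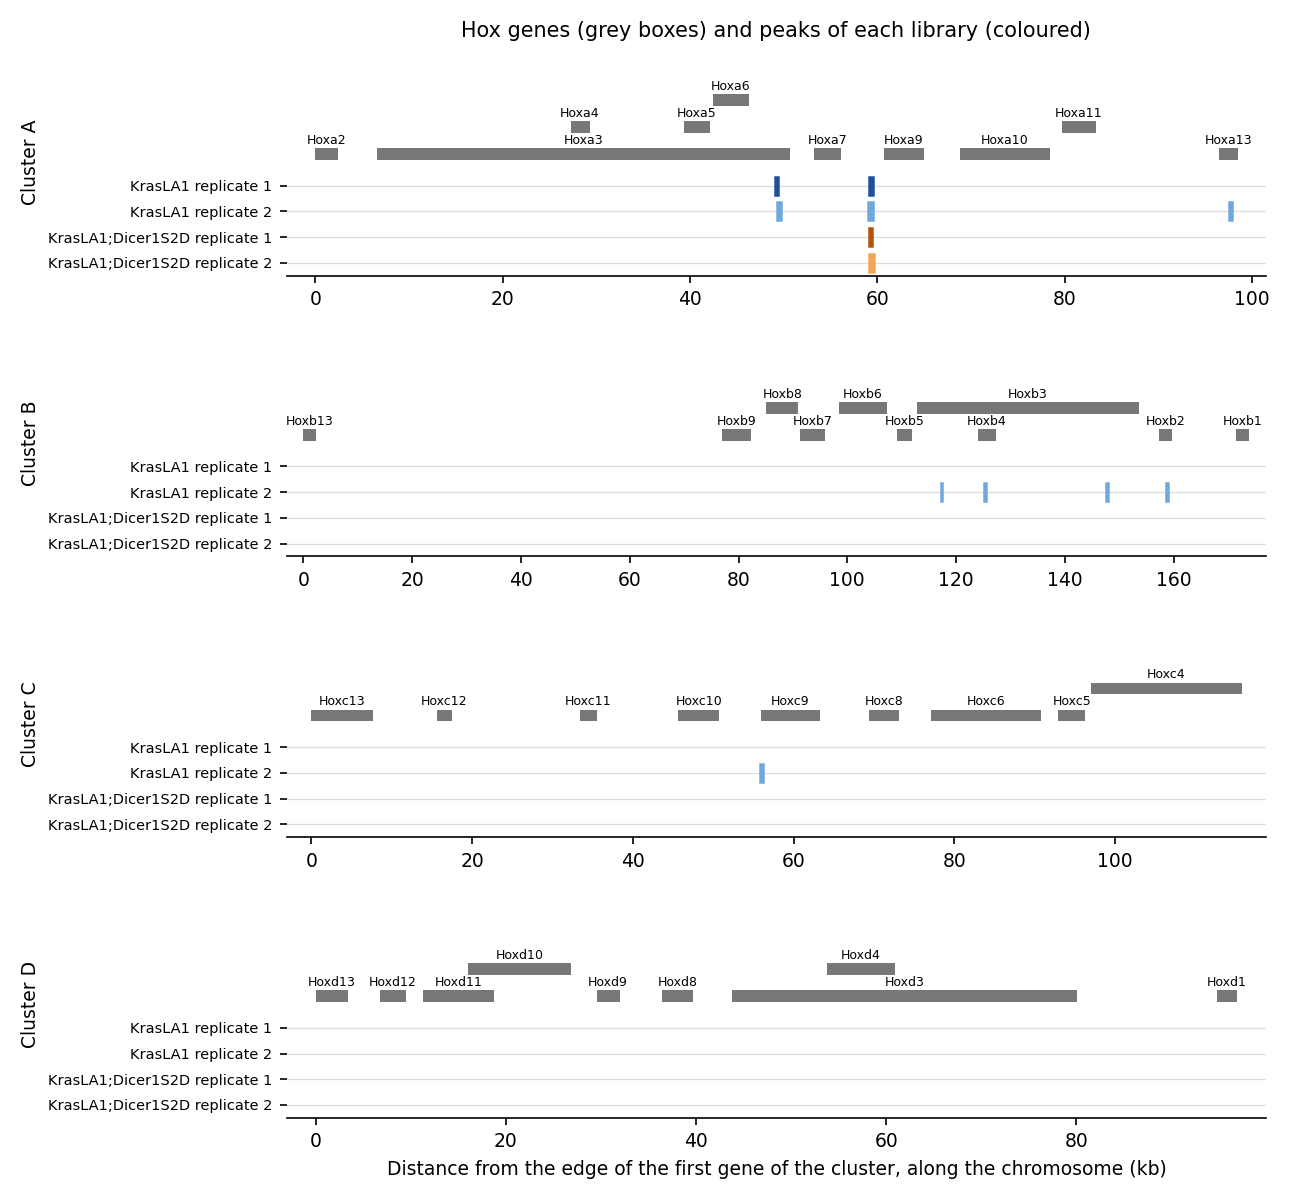
Maps of the 4 clusters to scale along the chromosome, in kb from the edge of the first gene, with genes as grey boxes and the peaks of each library as coloured bars (their outline is drawn wider than scale so that they can be seen). The 4 peaks near 60 kb in cluster A are those between Hoxa7 and Hoxa9, and the panel of cluster D holds none.

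Cluster D was empty in every library. Its 9 genes, Hoxd1, Hoxd3, Hoxd4 and Hoxd8 to Hoxd13, of which the posterior ones pattern the limb, lay in 1 stretch of 246.1 kb without a region (chr2:74579380-74825522), which also held Evx2. In single libraries that stretch measured 246.2 to 246.4 kb. It ended at a region of Lnpk, 88.8 kb from the cluster, and at one of Mtx2, 60.4 kb from it, both called in all 4 libraries. Of 60691 autosomal stretches between regions, with a median length of 11.5 kb, 73 held more complete protein-coding genes than the 10 of this one. Outside KrasLA1 replicate 2, cluster C lay in stretches of 423.0 to 440.2 kb that held all 9 of its genes, and cluster B in stretches of 513.8 to 659.9 kb that held all 10 of its genes. In KrasLA1 replicate 2, the stretches of cluster B were 235.3 kb, with Hoxb5 to Hoxb9 and Hoxb13, and 382.7 kb, with Hoxb1.

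Most partners, regulators and neighbours of the Hox genes carried peaks, as most coding genes did (64.1% to 67.5% by library). The TALE homeodomain cofactors, which bind DNA together with Hox proteins, had a peak at 8 and 9 of 9 genes in KrasLA1 and at 8 and 9 in KrasLA1;Dicer1S2D, replicate 1 first. Meis1 was the exception, with 1 peak in each replicate 2 and 0 in each replicate 1. Pbx2 had 1 region called in both KrasLA1 tumours only, the pattern of Hoxa3 and of 1.42% of all autosomal regions. Of 17 known regulators of Hox clusters, 13 had a peak in all libraries, among them the retinoic acid receptor Rarb with 19, 16, 24 and 9 peaks and Kmt2a, a histone methyltransferase that keeps Hox genes active, with 3, 5, 4 and 3. Cyp26a1, which degrades retinoic acid, and Cdx4 were at 0 in every library, Cdx1 had 1 peak in each replicate 1 only, and Bmi1 of Polycomb lacked a peak in KrasLA1;Dicer1S2D replicate 1. Of 12 genes found at or near the ends of the clusters, 8 had a peak in all libraries. The shares by library (66.7% to 75%) were near those of all coding genes. This list extends beyond the closest genes, to Hibadh and Nfe2l3 on the chromosome of cluster A, both with peaks in all libraries. Evx2 beside cluster D had none, nor had Calcoco2 and Ttll6 beside cluster B. Evx1, a homeobox gene beside cluster A, had 1 in KrasLA1 replicate 2 only. Of 26 other homeobox genes outside the clusters, 12 and 13 had a peak in KrasLA1 and 14 and 10 in KrasLA1;Dicer1S2D, or 38.5% to 53.8%, which is below all coding genes and above the Hox clusters in every library. The 11 of them at 0 in every library were Pdx1, Gsx1, Gsx2, Barx1, Nkx6-2, Prrx1, Msx2, Emx2, Dlx2, Dlx5 and Dlx6. A further 7 had a peak in some libraries, among them Nkx6-1 in KrasLA1 replicate 2 only, Nkx6-3 and Dlx1 in all but KrasLA1;Dicer1S2D replicate 2, Irx1 in all but KrasLA1 replicate 1, and Prrx2 and Emx1 in each replicate 1 only. These lists are descriptions and were not tested.

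**Figure D5:**
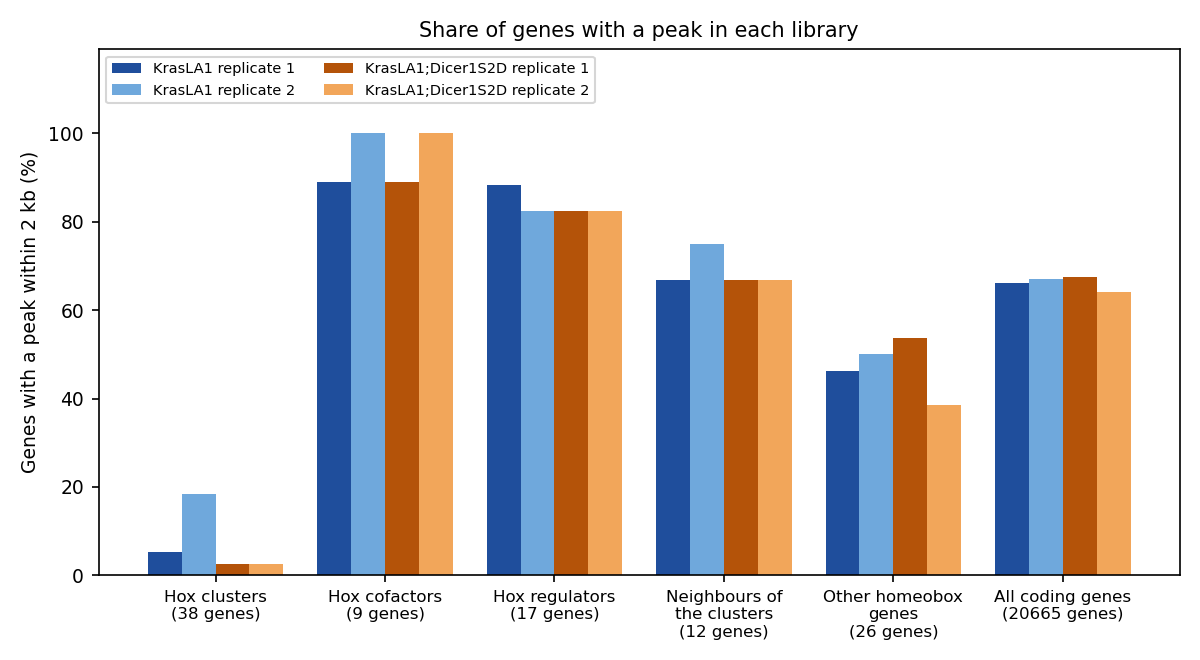
Share of genes with a peak within 2 kb, in percent, for the Hox clusters, 4 related lists and all autosomal protein-coding genes, with 1 bar per library. The Hox bars run from 2.63% to 18.4%, below every other group of bars.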

How the data were processed

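The deposited table holds 5 tracks of intervals in mm10, per the file headers: the authors' peaks of each of the 4 libraries and a track of merged regions. Start, end and name are the only values, with no count, score or height. Per the labels' protocols, 40 to 50 mg of tumour was frozen and a company made, sequenced and analysed the libraries. The tools named, per the submitters' processing notes, are deepTools 3.5.1, MACS3 3.0.0 and BWA 0.7.12. The sources used here do not give their roles, the threshold for a peak, filters or read shifts. A peak under an unknown threshold is absent, and fewer reads can give fewer peaks. The tracks were matched to samples by the number in the sample label, and 0 tracks belonged to other samples.

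Merging peaks that overlapped by 1 bp or more gave the deposited 61972 merged regions. Genes and promoters came from RefSeq tables for GRCm38.p6, and all 38 Hox symbols matched. Shares over all regions were taken over the 60713 regions of the 19 autosomes. Peak width was compared over the 26402 of them called in every library. Groups were compared with exact permutation tests over libraries, and log2 peak width with limma 3.58.1 in R 4.3.3. Python 3.11.15, numpy 2.4.6 and matplotlib 3.10.9 were used, and the steps were tested on simulated data. The members, lists, rule and tests were chosen with earlier results of these data known, and the length classes, CpG classes and peak-free stretches were added after seeing the peaks. The rule for named genes was to account for all 38 and to give each library's value for those with a peak, and to name list genes that lacked a peak in a library or had a region in 1 genotype only. Prac1 was not matched, and a few list genes are not reported here by name.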

Additional observations from a re-analysis of the deposited data

How the results depend on the processing

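Alternatives changed the window (gene body or 10 kb), the peaks used (widest 75%, equal numbers, at least 200 bp), merging, scaling and the libraries. The difference in Hox regions stayed negative in each, as did those in bases covered and genes with a peak, which were not recomputed for merging, nor genes for scaling. None could pass a test. Hox regions called in both KrasLA1 tumours only numbered 0 instead of 1 when peaks had to share 50% of the narrower one. With a KrasLA1 library left out, the count covers regions of the remaining KrasLA1 tumour absent from both KrasLA1;Dicer1S2D tumours. It was 7 without KrasLA1 replicate 1, which are regions of KrasLA1 replicate 2, and 1 without KrasLA1 replicate 2. With either KrasLA1;Dicer1S2D library left out it was again 1. Leaving out a library gave differences of -7 to -1 regions, -2510.5 to -279.5 bp and -6 to -1 genes. The log2 width difference at Hoxa9 was -0.12 without centring and -0.17 to 0.27 with a library left out. With 1 library in an arm, its spread was assumed equal to that of the other group. The replicate numbers coincide with sex, and the labels state no pairing. Deviations of the same-numbered libraries correlated at 0.120 over 26402 regions, and with a replicate block the differences were again -4 regions, -1395 bp and -3.5 genes (exact permutation test within pairs, p = 0.5), the log2 width difference was again 0.05 and limma again called 0 (1192 at an unadjusted p under 0.05). Depth is unknown, so an absent peak is not shown to be closed chromatin.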

Other observations

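The Hox clusters also hold microRNA genes, which were looked at after the peaks at the Hox genes had been seen, because Dicer1 cuts their precursors. They are shown with the seed (bases 2 to 8) in capitals, from RefSeq, GRCm38.p6. The miR-10 pair, from clusters B and D, has the same seed, and so has the miR-196 pair, from clusters A, B and C.
mmu-miR-10a-5p: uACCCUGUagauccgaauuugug
mmu-miR-10b-5p: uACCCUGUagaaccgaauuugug
mmu-miR-196a-5p: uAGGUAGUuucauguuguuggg
mmu-miR-196b-5p: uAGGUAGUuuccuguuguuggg
No library had a peak within 2 kb of the hairpins of Mir10a, Mir10b, Mir196a-1, Mir196a-2 or Mir196b, or of the mature sequences of Mir615 in cluster C. The nearest regions lay 2151 bp from Mir10a, 3570 bp from Mir196a-2 and 46268 bp from Mir196a-1, each called in KrasLA1 replicate 2 only. Those 8059 bp from Mir196b and 99386 bp from Mir10b were called in all 4 libraries. RNA levels of these microRNAs were not analysed here, and a hairpin without a peak says nothing of its transcription.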
